A study of Mus musculus with 24 samples.

Results

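Retinas of C57BL/6J mice were compared with retinas of 4 other classical inbred strains, which were A/J, 129S1/Svlmj, NZO/HlLtJ and NOD/ShiLtJ. Members were chosen by their strain label, which took 15 of the 24 libraries in the series, 3 for each of the 5 strains. The other 9 libraries come from the wild-derived strains WSB/EiJ, PWK/PhJ and CAST/EiJ and were used only to place single genes. The study sequenced total RNA of the retina, depleted of ribosomal RNA, from 8 inbred strains to relate retinal expression to refraction and contrast vision. All animals were wild type for their strain and were taken at postnatal day 28. The study calls the 3 libraries of a strain biological replicates, and the labels do not say whether each is a separate animal, so the tests measure the spread between samples. Strain is the variable compared, and anything that went with a strain in housing, collection or sequencing cannot be told apart from it.

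C57BL/6J is the strain from which the mouse reference genome was made, and much of mouse genetics uses it as its standard. The retina of a mouse is dominated by rods, the photoreceptors for dim light, with fewer cones, and its inner layers hold bipolar, horizontal, amacrine and ganglion cells and the Mueller glia. Inbred strains differ by inherited variants near genes, by gene duplications and deletions and by retrotransposed gene copies, and any of these can change how many reads a gene receives.

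The values are counts-per-million (cpm) for each gene, as deposited. The depth read back from the values was 62595000, 78150000 and 59420000 reads in C57BL/6J replicates 1 to 3, which held both the lowest and the highest depth of the 15 libraries. A gene with 3 reads, taken as the detection limit, would stand at 0.0384 to 0.0505 cpm, which covers counting error only. Before any result, 5 libraries stood apart in genes that do not belong to the comparison. Summed over 21 lens genes, C57BL/6J replicates 1 to 3 held 13.0, 310 and 19.4 cpm, 129S1/Svlmj replicate 2 held 2237 cpm and NOD/ShiLtJ replicate 2 held 2676 cpm. The other 10 libraries held 17.3 to 81.3 cpm of these genes. Cryaa, a crystallin of the lens and the most abundant of the list, stood at 1.80, 90.9 and 3.80 cpm in C57BL/6J and at 725 and 755 cpm in the 2 libraries with the most lens RNA. Xist, the RNA of the inactive X chromosome, stood at 906 cpm in C57BL/6J replicate 3 and at 962 cpm in 129S1/Svlmj replicate 3, against 0.146 to 3.12 cpm in the other 13. Ddx3y, a gene of the Y chromosome, stood at 0.118 and 0 cpm in those 2 libraries and at 28.4 to 35.2 cpm in the others. Chromosomes X and Y were therefore left out of all counts of genes, and counts were repeated without the 3 lens libraries. Of 9 genes of the retinal pigment epithelium tested, 0 were called. Summed over all 12 listed genes, tested or not, the level was 50.5, 26.3 and 49.0 cpm in C57BL/6J. It was 70.9 ± 25.5, 61.6 ± 6.76, 22.7 ± 4.85 and 44.9 ± 18.7 cpm (SD, n = 3) (in this order) in A/J, 129S1/Svlmj, NZO/HlLtJ and NOD/ShiLtJ, with Rgr the most abundant.

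The C57BL/6J retina held more RNA of several rod and cone genes and less of the rod arrestin Sag, of the Mueller glia potassium channel Kcnj10 and of the GABA receptor subunit Gabra2. Among the largest differences were genes with near-identical copies elsewhere in the genome, small and longer noncoding transcripts and a few other protein-coding genes with low levels on one side, such as Rtkn2 and Myo7a. A gene was called when C57BL/6J differed from the equally weighted mean of the 4 other strains at a q-value under 0.01 by limma, a linear model fitted across all genes. Of 15811 genes tested, 2397 (15.2%) were called, 1232 (7.79%) higher and 1165 (7.37%) lower in C57BL/6J. Counts for the gene lists below are to be read against these shares. A gene was said to be set apart when it differed from each of the 4 strains at that limit and in the same direction. This left 398 genes (2.52%), 222 higher (1.4%) and 176 lower (1.11%), and in 395 of them the 3 C57BL/6J libraries did not overlap the 12 others. Over all genes tested, 949 did not overlap. Among set-apart genes the smallest of the 4 log2 differences had a median of 0.42 and passed 1 for 37 higher and 19 lower genes. These values are on log2(cpm + 1), which shrinks differences at low levels. Cmtm5, for example, was 3.16-fold lower with a smallest difference of 0.44. Without the 3 lens libraries, 2163 genes were called and 356 set apart, and 319 of the 398 genes were again set apart. Called against single strains were 2156 genes for 129S1/Svlmj, 2368 for NOD/ShiLtJ, 2661 for A/J and 2233 for NZO/HlLtJ, comparisons that share the C57BL/6J libraries. With 1 mean per strain as the unit, 22 genes were called, and with the 12 other libraries as a single group 423 were, so the counts describe these 5 strains and not a wider population of strains. Leaving out C57BL/6J replicate 3, a library with Xist, gave the lowest counts of any library, 1678 called and 312 set apart.

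In rods, light leads to activation of the G protein transducin and through it of a phosphodiesterase, and arrestin helps to end the signal. Of 25 rod genes tested, 8 were called higher and 3 lower, with a median log2 difference of 0.12 against -0.01 over all genes, and without the lens libraries 8 were higher and 2 lower. Set apart were 4 higher, among them Gnat1, Guca1b and Rom1, and 1 lower, Sag. Gnat1, the alpha subunit of rod transducin, stood at 2584, 2456 and 2598 cpm in C57BL/6J against 1697 to 2275 cpm (median 1861) in the 12 other libraries, which did not overlap, or 1.34-fold higher (log2 0.42, q = 5.0e-06). Under quantile normalization, which forces all libraries to the same distribution, the log2 difference of Gnat1 was 0.04 and it was not called. Guca1b, a calcium sensor that regulates the rod guanylate cyclase, stood at 154, 161 and 154 cpm against 52.8 to 140 cpm, with 129S1/Svlmj far under the other strains at 55.7 ± 2.83 cpm (SD, n = 3). Rom1, a structural protein of the outer segment disc rim, differed by a log2 value of 0.26 and was not set apart without the lens libraries. Among rod genes called but not set apart, the phosphodiesterase subunit Pde6a (0.38), the disc protein Prph2 (0.25), the kinase Grk1 (0.25) and Gnb5 (0.14) were higher, while Gngt1 (-0.29) and the retinol dehydrogenase Rdh12 (-0.15) were lower. Summed over all 26 listed genes, 1 of them on chromosome X or Y and not tested, C57BL/6J held 18880 ± 202 cpm (SD, n = 3). Strain means of the others ran from 16050 to 18080 cpm, with overlap. In single libraries, NOD/ShiLtJ replicate 1 held 18790 cpm and C57BL/6J replicate 2 held 18750 cpm. In bulk RNA, fewer cells of a type and less RNA per cell cannot be told apart.

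Sag had the largest difference of the rod list and was lower. It encodes rod arrestin, which helps to shut off the light response. It stood at 862, 1010 and 879 cpm in C57BL/6J and at 1368 to 2285 cpm (median 1834) in the 12 other libraries. All 3 C57BL/6J libraries lay under all 12, and the level was 2.01-fold lower (log2 -0.99 ± 0.05 SE, q = 2.3e-10). The strain means were 1492 ± 125 cpm in 129S1/Svlmj, 2210 ± 72.0 in NOD/ShiLtJ, 1945 ± 34.4 in A/J and 1708 ± 38.4 in NZO/HlLtJ (SD, n = 3). The wild-derived strains held 1346 ± 148 (WSB/EiJ), 1770 ± 34.9 (PWK/PhJ) and 1723 ± 32.6 cpm (CAST/EiJ), and C57BL/6J was under each of the 7 strains by the test.

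Cones serve daylight vision with their own set of transduction proteins. Of 11 cone genes tested, 7 were called higher and 0 lower, with a median log2 difference of 0.19, and without the lens libraries 6 were higher and 0 lower. Pde6c, the catalytic subunit of the cone phosphodiesterase, stood at 35.1, 33.0 and 35.9 cpm in C57BL/6J and at 9.95 to 15 cpm (median 13.5) in the 12 others. The groups were far apart, with a 2.69-fold higher level in C57BL/6J (log2 1.37 ± 0.05 SE, q = 1.2e-12). The wild-derived strains were not like the other classical strains, with 28.2 cpm in WSB/EiJ, 41.1 in PWK/PhJ and 25.3 in CAST/EiJ, and Pde6c was not set apart from all 7. Pde6h, the inhibitory subunit of the same enzyme, was higher by a log2 value of 0.88, from 0.27 against NZO/HlLtJ to 1.26 against NOD/ShiLtJ. It was set apart from the 4 strains, though not without the lens libraries. Cnga3, a subunit of the cone cation channel, stood at 5.70, 5.25 and 5.25 cpm against 2.17 to 4.43 cpm, or 1.57-fold higher (log2 0.55, q = 1.9e-05). Opn1sw, the short-wave opsin and the most abundant gene of the list, differed by -0.02 and was not called. Summed over all 13 listed genes, 2 of them on chromosome X or Y and not tested, C57BL/6J held 436 ± 25.2 cpm. Strain means of the others ran from 344 to 390 cpm, with overlap. In single libraries, 129S1/Svlmj replicate 2 held 426 cpm and C57BL/6J replicate 1 held 409 cpm.

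**Figure D1:**
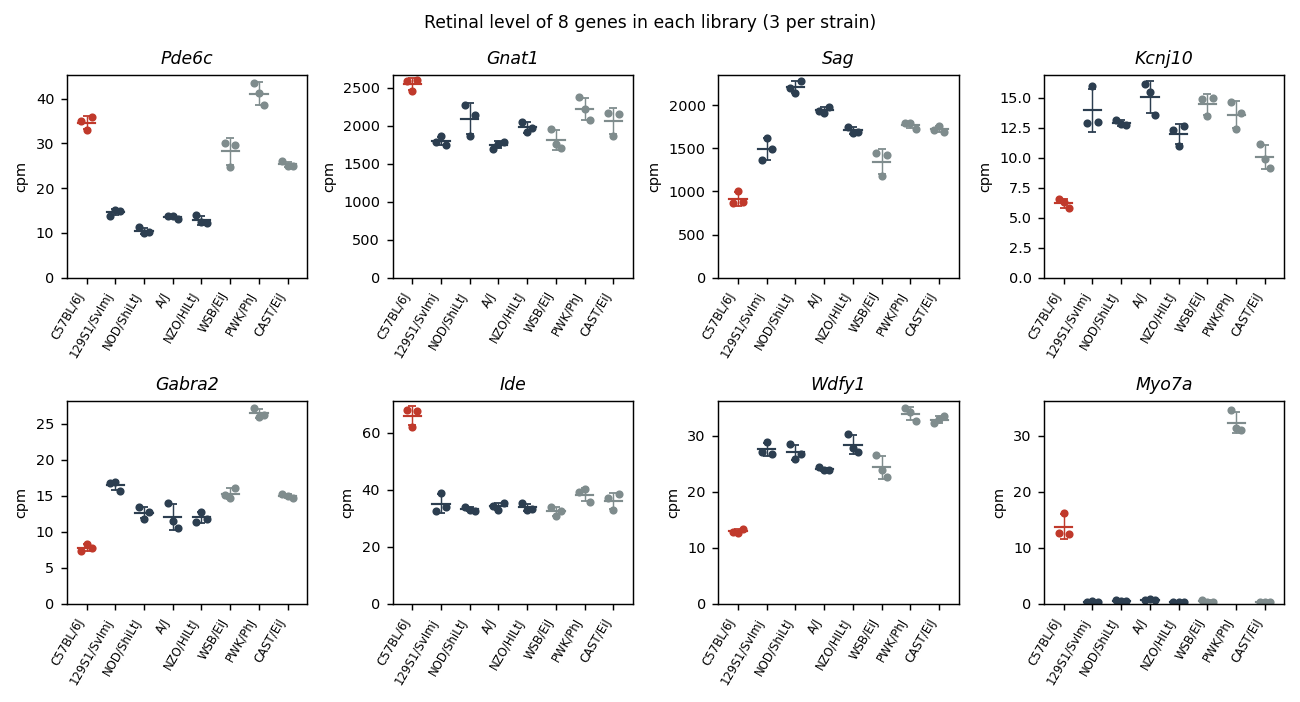
Level in cpm (vertical axes, from 0) of Pde6c, Gnat1, Sag, Kcnj10, Gabra2, Ide, Wdfy1 and Myo7a in each library, with strains along the horizontal axis. Points are libraries, lines are strain means and bars are SD (n = 3), with C57BL/6J in red, the 4 other classical strains dark and the wild-derived strains grey. The C57BL/6J points of Sag sit between 862 and 1010 cpm, under every other strain.

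Bipolar cells carry the photoreceptor signal inward, and of 16 genes of this list tested 1 was called higher and 5 lower, with a median log2 difference of -0.17. Among those lower were Cabp5 (-0.63), a calcium-binding protein, the glutamate receptor Grm6 (-0.33), its channel Trpm1 (-0.23) and the kainate receptor subunit Grik1 (-0.19). Higher was Prkca (0.50), the protein kinase C that marks rod bipolar cells. Its difference was 1.195 against A/J and 0.79 against NOD/ShiLtJ, but 0.13 against 129S1/Svlmj and -0.13 against NZO/HlLtJ. None of the 16 was set apart, and without the lens libraries 1 was called higher and 8 lower. Of 12 amacrine cell genes, the acetylcholine genes Slc5a7 (0.43) and Chat (0.39) and Calb2 (0.25) were called higher, and Nos1 (-0.32) and Gad2 (-0.17) lower, and without the lens libraries 3 were higher and 1 lower. Of 12 ganglion cell genes, the neurofilament gene Nefl (0.41) was called higher and 0 lower, and of 4 horizontal cell genes Calb1 (0.26) was called higher and 0 lower. Of 8 microglia genes, the complement gene C1qc (0.30) was called higher and P2ry12 (-0.30) lower, and without the lens libraries 1 was higher and 0 lower. Of 9 genes of vascular endothelium, Pecam1, Cldn5 and Tek were called higher and the receptor Kdr lower, and without the lens libraries 0 were higher and 1 lower. Of 21 lens genes 0 were called, and without the lens libraries 5 were called lower. Of 4 blood genes, the alpha globins Hba-a2 (1.18) and Hba-a1 (-1.09), which are near-identical, were called in opposite directions, and without the lens libraries 1 was higher and 2 lower. No gene of the amacrine, ganglion, horizontal, microglia, endothelium, lens or blood lists was set apart.

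Mueller glia clear potassium and glutamate from around the retinal neurons. Of 12 genes of this list, Kcnj10 (-1) and the glutamate transporter Slc1a3 (-0.22) were called lower and 0 higher, with a median log2 difference of -0.06. Kcnj10, the inward rectifier channel that carries most of the potassium current of these cells, stood at 6.52, 6.32 and 5.81 cpm in C57BL/6J and at 11 to 16.1 cpm (median 12.9) in the 12 others. All C57BL/6J libraries were lower, by 2.17-fold (q = 4.0e-09), and the gene was lower than in each of the 7 other strains. Without the lens libraries 1 gene of the list was called lower, and the median was 0.02.

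Several alleles that C57BL/6J carries are known from other work, and 2 of the genes fixed for them passed the filter on low values. Gabra2, the alpha2 subunit of the GABA-A receptor, is known in C57BL/6J for a lost base in an intron that lowers its RNA and protein in brain. It stood at 7.30, 8.28 and 7.78 cpm in the C57BL/6J retina and at 10.6 to 16.9 cpm (median 12.8) in the 12 others. The groups did not overlap, with a 1.71-fold lower level (log2 -0.69 ± 0.06 SE, q = 4.4e-07), and C57BL/6J was under each of the 7 other strains. Of the 16 GABA-A and glycine receptor subunits tested, Gabra2 was the 1 set apart, Gabrb2 (-0.14) was also called lower and Gabrd (0.29) higher, and without the lens libraries 0 were higher and 2 lower. Nnt, the mitochondrial enzyme that makes NADPH from NADH, lacks several exons in C57BL/6J. Its level over all exons was 4.81, 4.72 and 4.93 cpm, between 3.73 (129S1/Svlmj) and 3.41 (NZO/HlLtJ) on one side and 7.45 (NOD/ShiLtJ) and 7.37 cpm (A/J) on the other. It was not called against the mean (log2 -0.09, q = 0.19), and was called lower without 129S1/Svlmj or without NZO/HlLtJ. A value per gene does not show which exons were read. Ifi202b, Aanat, Nlrp12 and H2-Ea-ps stood at or near the detection limit in all 5 strains, and Mx1 too, apart from NZO/HlLtJ at 0.139 cpm. H2-Ea had no entry by that symbol. Of 20 genes of mitochondrial redox balance, Me3 (0.22) was called higher and Shmt2 (-0.40), the glutathione reductase Gsr (-0.35) and Nadk2 (-0.25) lower, and 0 were set apart. Without the lens libraries 0 of them were called higher and 3 lower.

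Class I molecules of the major histocompatibility complex (MHC) present peptides on the cell surface, and the haplotype of this region differs between classical strains. Of 10 genes of MHC class I and antigen processing tested, 6 were called higher in C57BL/6J and 0 lower, with a median log2 difference of 0.25, and 4 were higher without the lens libraries. These were H2-T22 (0.81), H2-K1 (0.60), B2m (0.49), the light chain shared by all class I molecules, H2-D1 (0.31), the peptidase Erap1 (0.30) and H2-Q4 (0.20). H2-T22 was the 1 set apart, at 1.17, 1.46 and 1.43 cpm against 0.1 to 0.739 cpm. Of its 31-base words, 67% also occur in other genes, genes that overlap it included, so its level is uncertain. A930015D03Rik, chosen after its values were seen, has 90.3% of its exon bases within H2-T22 on the opposite strand and was set apart lower (log2 -1.46). Reads were placed on the reference genome, so alleles of this region that differ from C57BL/6J may lose reads, and this was not tested. Of 13 interferon-inducible genes, 5 were called higher and 0 lower, with a median of 0.19. Among them were Ifit3 (0.71), Ifi27 (0.31), Irgm1 (0.31) and the regulator Irf7 (0.24), and 4 were called without the lens libraries. None of the 13 was set apart from the 4 strains, though Ifi27 was set apart, higher, in the fit over all 7.

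Retinal dopamine, made by a class of amacrine cells, and the circadian clock set the retina for day and night. Of 7 dopamine genes, the receptor Drd2 (-0.50) and the vesicular transporter Slc18a2 (-0.43) were called lower and 0 higher, and Th, the rate-limiting enzyme of dopamine synthesis, differed by -0.10 (q = 0.15). Of 22 clock genes, 2 were called higher, among them the nuclear receptor Rorb (0.70), and the output factor Dbp (-0.28) was called lower, and without the lens libraries 1 was higher and 1 lower. Of the melatonin genes, Tph2 alone passed the filter on low values and was not called. Of 365 zinc finger genes, taken by the symbol Zfp with a number, 33 were called higher and 37 lower (31 and 31 without the lens libraries), and 4 were set apart higher and 5 lower. Over all genes tested, 7.79% were called higher and 7.37% lower, and 1.4% were set apart higher and 1.11% lower, so these counts are near those shares. No dopamine, clock or melatonin gene was set apart from the 4 strains, though Drd2 was set apart, lower, in the fit over all 7, and the time of day of collection was not tested.

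The protein-coding genes with the largest differences had C57BL/6J levels far from all 4 strains. Myo7a, the unconventional myosin of photoreceptors, pigment epithelium and hair cells, stood at 12.6, 16.3 and 12.4 cpm in C57BL/6J and at 0.251 to 0.842 cpm (median 0.472) in the 12 others. It was 28.0-fold higher (log2 3.31 ± 0.08 SE, q = 8.1e-15), and PWK/PhJ held more still, 32.3 cpm. Mns1, a protein of cilia and flagella, stood at 5.91 ± 0.266 cpm (SD, n = 3) against 0.0993 cpm as the mean of the 4 strains, and 53.0% of its exon bases overlap Tex9 on the opposite strand. Eps8l1, an actin regulator, stood at 3.15, 6.35 and 12.8 cpm against 0.0806 to 0.176 cpm, the widest spread between C57BL/6J libraries of these genes. Abhd14a stood at 13.8 ± 0.794 cpm against 2.24 cpm while its antisense neighbour Abhd14b stood at 8.21 ± 0.513 against 27.7 cpm. The study used a stranded library kit, but neither it nor the deposit says whether reads were counted by strand. Levels of genes that overlap on opposite strands are therefore uncertain. Kpna2, an importin of nuclear transport, was 8.21-fold higher, the ribosomal protein gene Rpl29 30.3-fold higher, and the histone gene Hist1h4m stood at 4.16 cpm against at most 0.170 cpm. The other members of the 10 were the predicted genes Gm3055 (14.1 against 0.485 cpm, 29.0-fold), Gm4792 (18 against 1.35 cpm, 13.3-fold) and Gm16867 (5.31 cpm against at most 0.0305 cpm). Among genes of other types, 6820402A03Rik, a transcript still to be experimentally checked by its annotation (TEC), stood at 8.80, 7.78 and 8.89 cpm against at most 0.0144 cpm, and the wild-derived strains WSB/EiJ, PWK/PhJ and CAST/EiJ also held it at 5.60, 7.20 and 6.68 cpm. The small nuclear RNA gene Gm25939 stood at 21.1 against 0.624 cpm, and Gm19667 at 66.4 against 4.34 cpm.

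Among protein-coding genes lower in C57BL/6J were Rtkn2 and Col24a1, a fibrillar collagen. Rtkn2 stood at 0.863, 0.832 and 1.01 cpm in C57BL/6J and at 12.5 to 31.9 cpm (median 21.6) in the 12 others, 24.5-fold lower (log2 -3.55 ± 0.06 SE, q = 6.0e-17). PWK/PhJ shared the low level, with 0.941 cpm. Col24a1 stood at 1.15, 1.47 and 0.993 cpm against 8.19 to 17.2 cpm, 9.93-fold lower, and PWK/PhJ and CAST/EiJ were low too at 0.897 and 1.62 cpm. Tagap, a GTPase-activating protein of T cells, stood at 0.0612 ± 0.0117 cpm (SD, n = 3), near the detection limit, against 2.86 cpm. Tagap1, chosen after its values were seen, holds 54.9% of the words of Tagap and was set apart in the opposite direction (log2 0.86, q = 5.5e-11), though not without the lens libraries. Cfap54, a protein of motile cilia, stood at 4.01, 4.02 and 3.99 cpm against 12.7 to 16.8 cpm, 3.74-fold lower, and was lower than in each of the 7 other strains. The histone genes H2bc13 (0.0876 against 2.05 cpm) and H4f16 (5.73 against 19.9 cpm) were 23.4-fold and 3.48-fold lower. Alpk2, a kinase, stood at 1.52 against 5.79 cpm, Armh4 at 6.94 against 21.4 cpm and AI429214 at 1.97 against 5.74 cpm. The 3 genes of other types named as lower, by the largest smallest difference, were the noncoding RNA Rprl3 and the pseudogenes Gm8210 and Gm13841. Rprl3, a relative of the RNA of ribonuclease P, stood at 0.0320, 0 and 0.101 cpm in C57BL/6J against 64.5 to 429 cpm (median 75.4), highest in NOD/ShiLtJ with a mean of 364 cpm. Rpph1, the RNA of ribonuclease P itself, was the other way, at 2444, 2632 and 2590 cpm against 446 to 2246 cpm, with NOD/ShiLtJ nearest at 2065 ± 159 cpm and the other 3 strains at 487 to 536 cpm. Rpph1 and Rprl3 share 13 words of 31 bases, and 73% of Rpph1 lies within Ccnb1ip1 on the same strand.

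Several of the largest differences lay in genes that have a near-identical copy. A read that fits several places is divided between them by the authors' method, so the level of a gene and the levels of its copies depend on each other, and levels of near-identical copies are uncertain. Each gene was cut into words of 31 bases from its GENCODE M21 transcripts, and words shared with other genes were counted on either strand. This counts copies elsewhere and also genes that overlap at the same place, such as Mns1 with Tex9, so the shares below are not shares of genes with a copy. More than 50% of words were shared in 8.26% of tested genes, in 17.2% of genes set apart higher (38 of 221 matched) and in 21.4% of genes set apart lower (36 of 168). Among protein-coding genes the shares, overlaps included, were 4.02% of all, 12.5% of those higher (21 of 168) and 9.09% of those lower (10 of 110).

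Rpl29, a protein of the large ribosomal subunit, and 3 of its processed pseudogenes divided by strain. In C57BL/6J, Rpl29 stood at 15, 14.3 and 15.1 cpm and Gm6344 at a mean of 5.84 cpm, while Gm8210 and Gm13841 each stood at 0, 0.0199 and 0 cpm. In the 4 other strains the means were 0.488, 0.0608, 5.39 and 5.22 cpm in the same order. Of the exon bases of Gm6344, 86.13% overlap Uimc1 on the opposite strand. The sum of the 4 genes was 20.7 ± 0.514 cpm (SD, n = 3) in C57BL/6J and 11.2 cpm in the others, whose libraries ran from 9.79 to 13.3 cpm. Each copy differs from Rpl29 in 3 of the 480 coding bases (99.4% identical), and Gm8210 and Gm13841 have the same 31-base words. The stretch below, coding bases 274 to 423 of the GENCODE M21 transcripts (GRCm38), is shown because it holds 2 of the 3 differing bases, which are in capitals. It lies at chr9:106431240-106431389 (plus strand) for Rpl29, chr1:43189429-43189578 (plus) for Gm8210, chr5:115801737-115801886 (minus) for Gm13841 and chr13:55086050-55086199 (plus) for Gm6344.
Rpl29: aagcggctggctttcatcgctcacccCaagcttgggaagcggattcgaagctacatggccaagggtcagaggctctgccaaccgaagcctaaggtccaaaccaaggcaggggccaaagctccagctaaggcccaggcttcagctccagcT
Gm8210: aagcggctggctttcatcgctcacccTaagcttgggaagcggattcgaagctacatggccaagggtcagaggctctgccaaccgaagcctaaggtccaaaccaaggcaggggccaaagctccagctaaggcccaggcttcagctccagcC
Gm13841: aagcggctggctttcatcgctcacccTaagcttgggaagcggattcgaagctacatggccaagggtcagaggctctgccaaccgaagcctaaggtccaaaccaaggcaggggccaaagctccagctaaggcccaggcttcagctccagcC
Gm6344: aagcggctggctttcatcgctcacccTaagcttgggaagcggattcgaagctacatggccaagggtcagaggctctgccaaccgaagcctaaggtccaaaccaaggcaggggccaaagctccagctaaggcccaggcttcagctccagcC

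Tdg, the thymine DNA glycosylase of base excision repair, was chosen after values were seen, as were the other gene and copy sets of the next sentences. It stood at 12.4, 10.6 and 11.6 cpm in C57BL/6J and at a mean of 4.18 cpm in the others, 2.75-fold higher. Its pseudogenes were lower, Tdg-ps at 0.0996 against 0.766 cpm and Gm9855 at 2.66 against 5.21 cpm, and the sum was 14.3 ± 1.24 against 10.2 cpm. Tdg and Tdg-ps differ in 14 of 1191 bases (98.8% identical), and 6 of them, in capitals, lie in coding bases 941 to 1090. The stretch lies at chr10:82647968-82648616 over 2 exons for Tdg and at chr15:82517424-82517573 for Tdg-ps (both plus strand, GRCm38).
Tdg: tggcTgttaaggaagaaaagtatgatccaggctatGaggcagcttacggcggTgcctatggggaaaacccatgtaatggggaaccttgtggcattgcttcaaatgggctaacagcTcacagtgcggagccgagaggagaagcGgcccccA
Tdg-ps: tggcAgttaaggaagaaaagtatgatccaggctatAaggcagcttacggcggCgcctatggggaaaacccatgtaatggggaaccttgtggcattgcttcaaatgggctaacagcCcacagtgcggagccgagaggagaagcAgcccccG

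In several other sets the sum over gene and copies differed less between C57BL/6J and the mean of the 4 strains than its division did. Hspa8, the constitutive heat shock protein 70, stood at 189, 204 and 180 cpm against 65.5 to 84.3 cpm, 2.55-fold higher, while Gm15459 stood at 211 against 315 cpm. Their sum was 402 ± 27.6 cpm (SD, n = 3) in C57BL/6J and 336 to 442 cpm in the others. Of the exon bases of Gm15459, 95.83% overlap Gm26825 on the opposite strand. Cox7a2l, a factor of respiratory supercomplexes, stood at 26.5 against 20.5 cpm and Gm6969 at 2.42 against 8.35 cpm, with a sum of 28.9 cpm on both sides. The proteasome subunit Psmb5 (6.58 against 4.48 cpm) and Gm3375 (2.56 against 4.93 cpm) summed to 9.13 and 9.41 cpm. Tma7 (95.8 against 83.5 cpm) and Tma7-ps (6.69 against 17.9 cpm) summed to 102 and 101 cpm. Kpna2 (15.7 against 1.91 cpm), Gm10259 (0.893 against 13.8 cpm) and Gm10184 (87.0 against 79.7 cpm) summed to 104 and 95.4 cpm. NZO/HlLtJ weighed heavily in these means, with Gm10259 at 41.1 cpm against 3.73 to 6.00 cpm in the other 3 strains and Gm10184 at 39.4 cpm against 85.7 to 101 cpm. Hist1h4m and Hist1h4n summed to 10.7 and 9.37 cpm. Gm3055 shares 93.8% of its words with the zinc finger gene Zfp781, which stood at 10.3 against 15 cpm, and here the sum also differed, at 24.4 against 15.5 cpm.

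**Figure D2:**
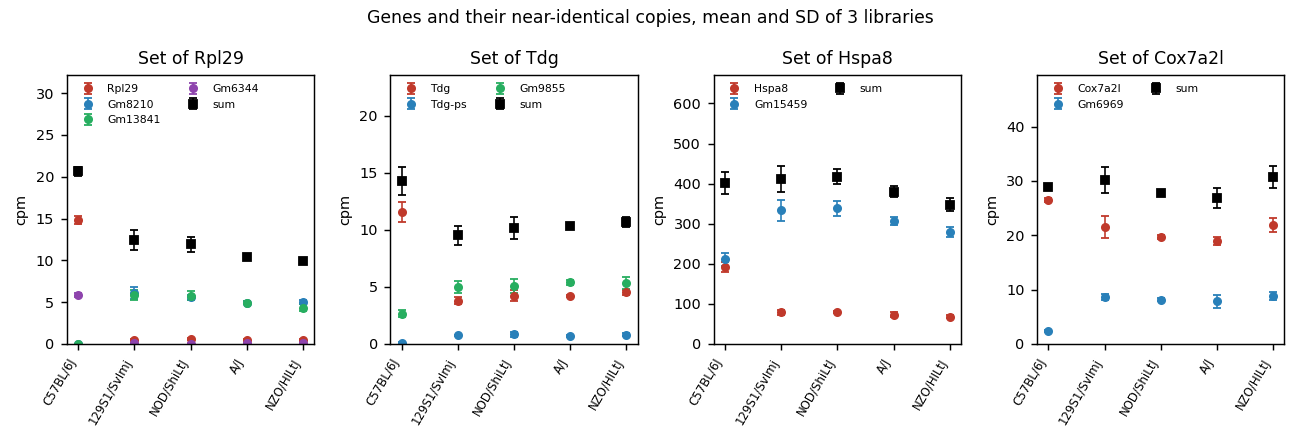
Level in cpm (vertical axes, from 0) of Rpl29, Tdg, Hspa8 and Cox7a2l, of their copies and of the sum of each set, in the 5 classical strains. Values are strain means with SD bars (n = 3). The Cox7a2l set sums to 28.9 cpm in C57BL/6J and 28.9 cpm in the 4 others, while Gm6969 stands at 2.42 against 8.35 cpm.

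Processed pseudogenes are retrotransposed copies of messenger RNAs. A gene that is high only in the 12 other libraries passes the filter on low values more easily than a gene that is high only in the 3 C57BL/6J libraries, so the numbers lower and higher are a description of the genes that passed. Of 823 tested, 31 were set apart lower and 2 higher (Gm6344 and Gm9493), and 28 and 2 were without the lens libraries. The numbers depended on that filter, with 28 lower and 13 higher without it and 9 and 0 at a mean of at least 5 cpm. It was 40 and 8 without 129S1/Svlmj, and 37 and 4 at a limit of 0.05. Called against the mean were 90 lower and 18 higher. Against all 7 other strains 17 were lower and 0 higher, by limma at the same limit. The processed pseudogenes set apart lower that matched the annotation numbered 29, and 20 of them shared more than 50% of their words with a single parent or partner gene. Counting words shared with any other gene, 72.4% of the 29 and 72.3% of all 786 tested and matched processed pseudogenes shared more than 50%, so this share was that of the class. Over all 29, the gene with the most shared words, however few, was tested for 28, and was called higher for 11 and lower for 5. That gene need not be a parent and can be another pseudogene, since Gm8210 and Gm13841 share all their words. The same count was not made for the other processed pseudogenes, so these numbers are a description only. Of protein-coding genes, 169 of 12504 were set apart higher and 115 lower, and of 965 long noncoding RNAs 29 and 15. The reference to which all reads were aligned is that of C57BL/6J, and the part this had in the levels of copies was not tested.

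Some pairs of near-identical genes were higher together in C57BL/6J and were chosen after values were seen. Entpd4 and Entpd4b, nucleotide hydrolases of the Golgi and lysosome, share all their words. They stood at 29.0 ± 0.324 and 27.4 ± 0.587 cpm (SD, n = 3) in C57BL/6J against 15.1 and 13.8 cpm, 1.92-fold and 1.99-fold higher, and summed to 56.4 against 28.9 cpm. On the opposite strand, Gm16867 overlaps 26.13% of the exon bases of Entpd4 and Gm27177 overlaps 21.05% of those of Entpd4b. Both overlapping genes were set apart higher too, so these levels are uncertain. Srp54a and Srp54b, which encode the GTPase of the signal recognition particle, stood at 34.8 and 55.1 cpm against 16.5 and 25.5 cpm, 2.11-fold and 2.16-fold higher, and summed to 89.8 against 42.0 cpm. Ide, the insulin-degrading enzyme, shares 0.7% of its words with other genes and was 1.93-fold higher, at 68.1, 62.1 and 67.6 cpm against 32.6 to 38.9 cpm (median 33.6). Its level was above that of each of the 7 other strains. In the other direction Wdfy1, an endosomal adaptor, stood at 12.9, 12.6 and 13.3 cpm against 23.9 to 30.4 cpm, 2.07-fold lower.

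Set-apart genes were unevenly placed along the chromosomes. Tested genes fell in 500 bins of 5 Mb, the mitochondrial chromosome counted as 1 of them, and 308 bins held no set-apart gene, 107 held 1 and 18 held 5 or more. Those 18 bins held 127 of the 398 set-apart genes and 1064 of the genes tested. The bin with the most was chromosome 1 from 170 to 175 Mb, with 14 of 49 tested genes (28.6%), 8 higher and 6 lower. Among those higher were Copa, a coat protein of vesicles from the Golgi (85.8 ± 1.95 against 57.3 cpm, 1.5-fold), Sdhc, a subunit of a respiratory complex (16.2 against 10.4 cpm), Uap1 (24.4 against 14.9 cpm), Dusp12, Pex19, Fmn2 and Gm37748. Among those lower were Kcnj10, its close neighbour Igsf9, a synaptic adhesion protein (23.6, 30.2 and 26.9 cpm against 40.7 to 67.1 cpm, 1.98-fold), the kinase Uhmk1 (135 against 197 cpm), Gm20045 and Tma7-ps. Chromosome 14 from 50 to 55 Mb held 11 of 51 (21.6%), 7 higher and 4 lower. Rpgrip1, which anchors proteins at the photoreceptor connecting cilium, stood at 533, 538 and 524 cpm against 311 to 411 cpm, 1.47-fold higher (log2 0.56, q = 1.3e-07). Also higher were Rpph1, Gm26782, Slc39a2, Gm43305, Psmb5 and Ttc5, and lower were Parp2, Ndrg2, Cmtm5 and Gm7107. Chromosome 9 from 105 to 110 Mb held 11 of 113 (9.74%), 8 higher and 3 lower. These were Gnat1, Rpl29, Abhd14a, Gm28959, all of whose exon bases lie within Abhd14b on the opposite strand, Col6a4 (2.48 against 0.283 cpm, 8.75-fold), Gm19667, Ppm1m and Ccdc51, higher, and Abhd14b, the hyaluronidase Hyal1 and A930036K24Rik, lower. Of the genes in these 3 bins, Ccdc51, Fmn2, Pex19, Gm37748, Gm7107 and Slc39a2 were not set apart without the lens libraries. Neighbouring genes share inherited segments and are not independent of each other.

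**Figure D3:**
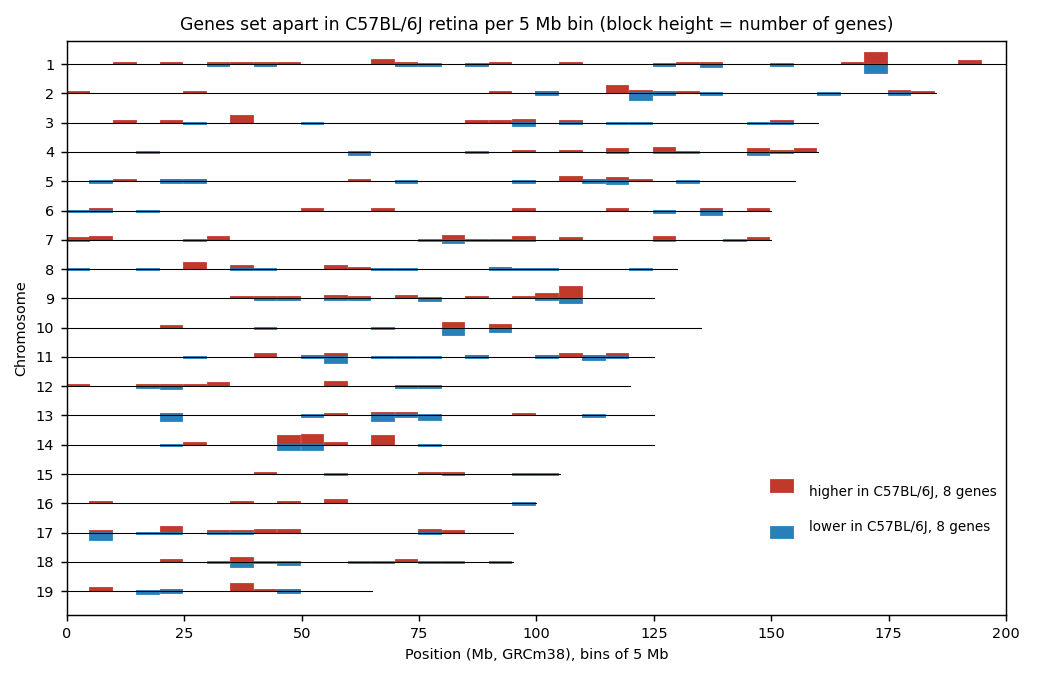
Number of set-apart genes in each 5 Mb bin along chromosomes 1 to 19 (horizontal axis, position in Mb), with genes higher in C57BL/6J in red above the line and genes lower in blue below it. Block height is the number of genes. The fullest bin, on chromosome 1 from 170 to 175 Mb, holds 8 higher and 6 lower genes.

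Against all 7 other strains of the series, 205 genes (1.3%) were set apart, 130 higher (0.822%) and 75 lower (0.474%). Of these 205, 187 were among the 398 set apart from the 4 classical strains, with the same direction. Gnat1, Sag, Kcnj10, Gabra2, Ide, Wdfy1, Cfap54 and 6820402A03Rik were in that count, and Pde6c, Myo7a, Rtkn2 and Col24a1 were not, where at least 1 wild-derived strain held a level like that of C57BL/6J or beyond it.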

How the data were processed

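The authors deposited counts-per-million (CPM) for each gene, made in Partek Flow with STAR alignment to the mouse genome (mm10, GRCm38), an expectation-maximisation count and 0.0001 added to each value, which was taken off again. No versions were given. Values were used as log2(cpm + 1). Tested were genes whose mean reached 0.5 cpm over the 15 libraries, without the 971 genes of chromosome X and 21 of chromosome Y (15811 of 28802). The test was limma 3.58.1 in R 4.3.3, with 1 mean per strain, a mean-variance trend in eBayes and two-sided p-values. These were turned into Storey q-values (pi0 at lambda 0.5), with 0.01 as the limit. The scripts were tested on simulated data first. Folds are ratios of mean cpm to the mean of the 4 strain means, and numbers in parentheses after gene symbols without a unit are log2 differences from the mean of the 4 strains. Differences come with the standard error (SE) of the fit.

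Depth was read as the scale at which values of genes under 20 reads were nearest to whole counts (87.2 to 89.2% whole within 0.02 reads). Words of 31 bases and exon overlaps came from GENCODE M21, which may not be the annotation used for counting: the study names RefSeq, the deposited table carries Ensembl-style gene sources and types, and no release is given. Gene types are those of the deposited table. Of the genes tested, 15558 were matched to the annotation, and 389 of the 398 set apart.

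Named genes were all those of the list of known C57BL/6J alleles. Among genes also set apart without the lens libraries, the 10 protein-coding genes higher, the 10 lower, and 3 other genes each way were named by the largest smallest difference. Up to 4 set-apart genes of each list and the genes of the 3 fullest 5 Mb bins were added. The text does not name every gene that this rule takes. Called genes of the lists that were not set apart, Ide, Wdfy1 and the gene and copy sets were chosen after their values were seen. The members and lists were chosen with earlier results of these data known. Counts without 129S1/Svlmj replicate 3 and C57BL/6J replicate 3, the shared words and the copy sums were added after seeing the data.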

Additional observations from a re-analysis of the deposited data

How the results depend on the processing

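Alternatives were run gene by gene for 76 genes, and Pde6h and Rom1 were not among them. The log2 difference of each called gene of the 76 kept its direction under every alternative run, apart from 1 gene at 0 under quantile normalization. Nnt, not called, ran from -0.25 to 0.06. Over 76 genes, 2403 of 2473 comparisons stayed on their side of the limit, 68 lost the call, 2 gained it (Nnt) and 0 called values reversed; 60 of the 68 were with the strain mean as unit. Against the main counts of 2397 called and 398 set apart (222 higher, 176 lower), a mean of at least 5 cpm gave 1359 called and 213 set apart (112 higher, 101 lower), with fewer genes tested. A limit of 0.05 gave 3794 called and 701 set apart (368 higher, 333 lower). Without 129S1/Svlmj, 688 were set apart (377 higher, 311 lower), and the cause was not tested. Without NOD/ShiLtJ, A/J or NZO/HlLtJ there were 492, 495 and 513. The strain mean as unit gave 22 called, and 2 groups gave 423. Leaving out each library in turn gave 1678 to 2514 called, 312 to 407 set apart (166 to 229 higher, 139 to 196 lower) and 157 to 197 set apart from all 7 strains. Without 129S1/Svlmj replicate 3 and C57BL/6J replicate 3, an alternative added after seeing the data, 1606 were called and 286 set apart. The other alternatives (pseudocount, no filter, median-ratio scaling, quantile normalization, Benjamini-Hochberg, 8 strains in the fit, no trend, Xist as covariate, no lens libraries, other strains left out) moved the counts called and set apart from the 4 strains by less than 1.5 times. Apart from leaving out each library, the count set apart from all 7, 205, was run only with another pseudocount, median-ratio scaling, Benjamini-Hochberg and no lens libraries, and was 170 to 211. A gene under 0.0384 to 0.0505 cpm was not detectable at this depth.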
